A study of Mus musculus with 6 samples.

Results

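A set of 10 genes of the unfolded protein response was followed in mouse epidermis with a conditional deletion of Rptor. They are Ern1, Xbp1, Atf6, Herpud1, Edem1, Hspa5, Hsp90b1, Dnajb9, Dnajc3 and Creld2, taken from the 30142 genes that the arrays measured with a probe set naming a single gene. Each of the 10 had 1 such probe set, so none had to be chosen among several. The rule names the members by gene symbol and uses no measured value, but the set was proposed with earlier results of these data known. The tissue was E18.5 epidermis, lifted off the dermis with ammonium thiocyanate. There were 3 arrays of Rptor cKO (conditional knockout) embryos, numbered 1 to 3, and 3 of wild-type littermates, numbered 4 to 6. The product of Rptor, Raptor, recruits substrates to the growth-regulating kinase complex mTORC1. Neither the promoter behind the deletion nor the deleted exons were stated in the sources used here. The series description calls the samples of a group biological replicates.

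The unfolded protein response adjusts the folding capacity of the endoplasmic reticulum (ER) to the load of proteins that enter it. Sensors in the ER membrane respond to unfolded proteins: IRE1, encoded by Ern1, splices the mRNA of the transcription factor XBP1, ATF6 is released by proteolysis and enters the nucleus, and PERK slows translation. The factors then raise the genes of chaperones, which fold proteins, and of ER-associated degradation, which sends misfolded proteins to the proteasome. Keratinocytes make large amounts of adhesion proteins and lipids as they differentiate, and signs of this response have been described during normal differentiation. Splicing of Xbp1 mRNA, phosphorylation of IRE1 and cleavage of ATF6 were not measured on these arrays, which read the amount of RNA per gene.

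The promoter sequences of the members were searched for elements of the response. RefSeq promoter windows of build GRCm38.p6, from 250 bases before to 50 after a gene's start, were matched by symbol for 9 of the 10 members. The ER stress response element, ERSE, is bound by ATF6 and XBP1 together with NF-Y and was searched on both strands as CCAAT and CCACG with 9 bases between them. It was found in the windows of 4 members, the chaperone genes Hspa5, Hsp90b1, Dnajc3 and Creld2, where 0.137% of the 27025 genes with a window hold it. The related ERSE-II, searched on both strands as ATTGG and CCACG with 1 base between them, was found in 1 member, Herpud1, and in 0.0444% of all genes. A shorter element bound by XBP1, searched as TGACGTGG on both strands, was found in no window of the 9 members and in 0.714% of all genes. ERSE and ERSE-II share the letters CCACG, and each match below belongs to 1 motif. Dnajb9, a co-chaperone gene, held none of the 3 motifs, and neither did Ern1, Xbp1 and Edem1. Among the 9 members with a window, an exact ERSE match was thus found in chaperone genes only, though not in all of them. Sites that differ from the searched letters were not counted. The 250 bases before the start of Herpud1, for example, end with CCAAT, 9 bases and CCAC. The window of Edem1 belongs to a start inside the annotated gene span. The matches therefore do not separate chaperone genes from the other members. The matched sites are shown in the sense of the gene with the match in capitals, so that they can be set beside the array values.
Hspa5: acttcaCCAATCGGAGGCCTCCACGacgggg
Hsp90b1, upstream site: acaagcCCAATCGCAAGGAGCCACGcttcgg
Hsp90b1, downstream site: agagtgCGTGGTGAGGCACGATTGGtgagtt
Dnajc3: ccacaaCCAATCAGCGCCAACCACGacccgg
Creld2: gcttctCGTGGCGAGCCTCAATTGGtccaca
Herpud1: gcgctgATTGGGCCACGttggac
The match begins 65 bases before the start of Hspa5, at chr2:34772025-34772043. In Hsp90b1, on the minus strand, the matches lie at chr10:86705638-86705656 and chr10:86705533-86705551, and in Dnajc3 at chr14:118937827-118937845. The Creld2 match lies at chr15:88819520-88819538 and, like the second of Hsp90b1, reads on the opposite strand to the gene. The ERSE-II of Herpud1 begins 52 bases before its start, at chr8:94386377-94386387. A match describes the letters of a window and is not a measurement of binding.

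The 250 bases before the start are given whole for Herpud1, Xbp1 and Hspa5, the gene with the largest measured difference, the factor of the pathway and the best known target of the response. Capitals again mark ERSE or ERSE-II, and the plus strand is shown for all.
Herpud1, chr8:94386179-94386428: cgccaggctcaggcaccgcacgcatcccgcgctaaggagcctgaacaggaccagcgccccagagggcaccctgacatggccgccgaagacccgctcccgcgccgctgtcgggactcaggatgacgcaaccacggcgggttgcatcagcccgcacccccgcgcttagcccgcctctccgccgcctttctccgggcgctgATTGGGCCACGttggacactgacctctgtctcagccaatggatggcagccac
Xbp1, chr11:5520391-5520640: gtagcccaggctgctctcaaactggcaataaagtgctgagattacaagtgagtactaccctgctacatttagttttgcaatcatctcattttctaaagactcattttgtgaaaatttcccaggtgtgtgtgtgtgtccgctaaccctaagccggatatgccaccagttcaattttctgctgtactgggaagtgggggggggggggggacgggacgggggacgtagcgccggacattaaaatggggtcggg
Hspa5, chr2:34771840-34772089: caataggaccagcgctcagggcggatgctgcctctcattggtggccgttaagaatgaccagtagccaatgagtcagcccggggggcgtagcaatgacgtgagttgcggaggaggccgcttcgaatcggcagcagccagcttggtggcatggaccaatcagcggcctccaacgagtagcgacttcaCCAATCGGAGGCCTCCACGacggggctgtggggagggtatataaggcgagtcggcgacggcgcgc
None of the searched motifs is in this window of Xbp1, which says only that these letters are absent from it.

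The deposited values are log2 probe set values, and a negative difference means a lower value in Rptor cKO. Over all probe sets the array medians ran from 4.08 to 4.22, and those of the negative controls alone from 3.81 to 4.11. All 60 member values lay above that median on their array, from 6.02 to 9.20, and 14 of them above the 95th percentile of the negative controls, which ran from 7.46 to 8.07. Rptor itself averaged 6.69 ± 0.14 in its knockout arrays against 7.15 ± 0.27 in wild type (SD, n = 3), with every Rptor cKO array lower, but the difference of -0.46 (SE 0.15) missed the threshold (limma adjusted p = 0.0990). By Xist and Y-linked genes, Rptor cKO arrays 1 and 3 came from females, and Rptor cKO array 2 and the wild-type arrays from males. Among markers of other cell types, 5 of 8 dermal fibroblast genes were higher in Rptor cKO, with a mean log2 level of 6.507 to 6.999 against 6.04 to 6.18. Of 10 keratinocyte markers 6 were lower and 1 higher, with a mean of 9.46 to 10.3 against 10.5 to 10.7. The lower ones were Krt1 (-2.07) and Krt10 (-1.76) of the spinous layer, Flg (-2.57), Lor (-1.47), Dsc3 (-0.93) and Perp (-0.44). Dsg3 (0.70) was higher. Krt5 (0.035) and Krt14 (0.26) of the basal layer and Trp63 (0.022) did not pass the test. Of 7 markers of macrophages and Langerhans precursors 3 were lower, Ptprc (-0.57), Csf1r (-0.64) and Cx3cr1 (-0.70). Adgre1 (-0.33), Cd68 (-0.21), Fcer1g (-0.18) and Cd207 (0.12) did not pass. The mean of the 7 was 4.783 to 4.989 against 5.178 to 5.249. Of 6 Merkel cell markers 1 was higher and 1 lower, and of 6 endothelial markers 1 was higher, while Kdr, Tek and Emcn were dimmer than the median negative control on each array. None of 5 melanocyte and 5 skeletal muscle markers passed, with 2 and 4 of them higher at an unadjusted p under 0.05 in limma. Plasma and B cell markers held no call in 5 genes, with none at an unadjusted p under 0.05 in limma, and Jchain stayed below the median of the negative controls on each of the 6 arrays.

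Of the 10 genes, 4 were lower in Rptor cKO epidermis and none was higher: Herpud1, Xbp1, Edem1 and Ern1. In the same fit 5.95% of all genes were lower and 3.63% higher, so that 9.58% were called in all. With 8651 dim genes left out, none above the median negative control on any array, 2974 of 21491 genes were called, 1862 of them lower. That share is higher, and the same 4 members passed, all as lower. The falls were of 1.34-fold to 1.96-fold. The 5 chaperone and co-chaperone genes held no call, with differences between -0.33 and 0.038. Without adjustment, 5 members had p under 0.05 in limma, the 4 called genes and Dnajc3, as had 23.3% of all genes. The median difference of the members was -0.28, beside 0.05 over all genes. In 6 members every Rptor cKO array lay below every wild-type array, a pattern seen in 12.5% of all genes; the opposite order, seen in 16.5% of all genes, occurred in none of the 10. The measured difference was below 0 in 8 members and in 38.4% of all genes. In bulk tissue, fewer cells that express a gene and less of its RNA per cell cannot be told apart. Some markers of keratinocytes, fibroblasts and macrophages differed between the groups as given above, and the part of these cells in the results was not tested.

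**Figure D1:**
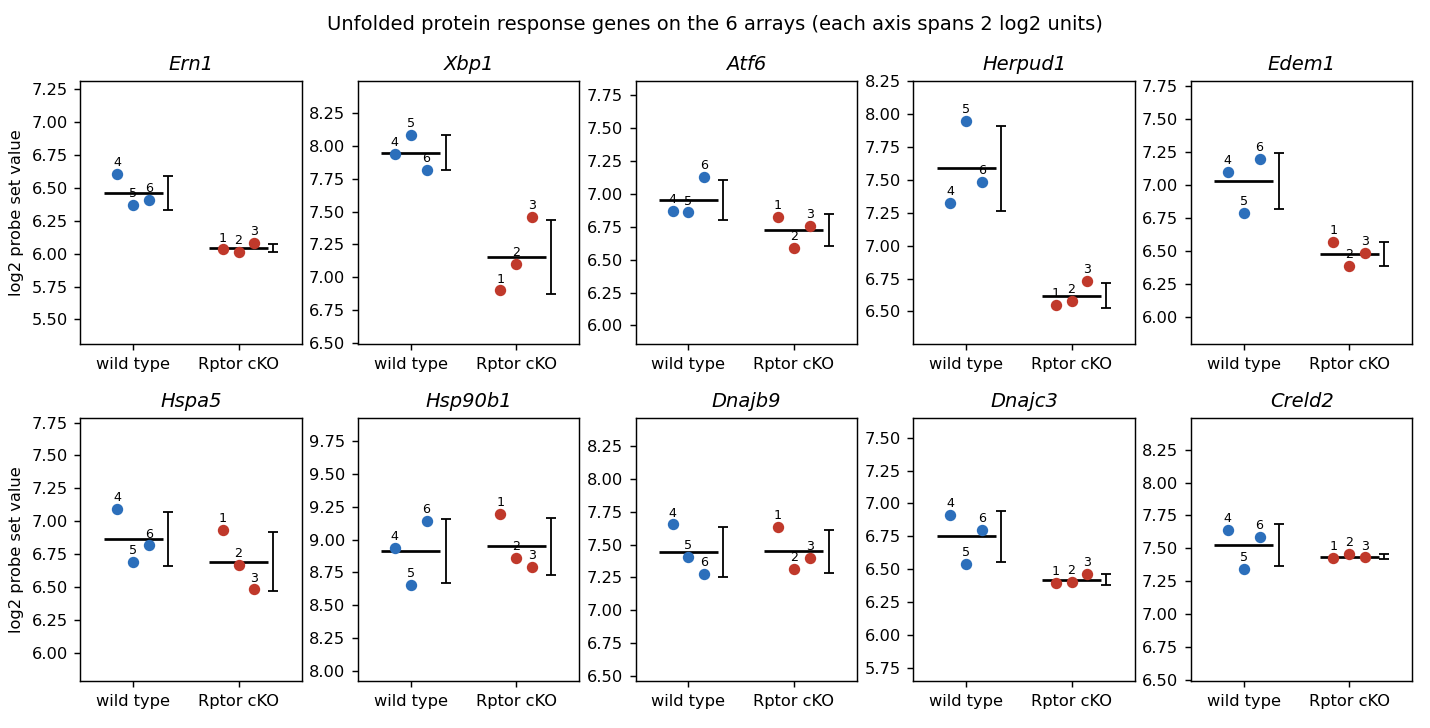
Log2 probe set values of the 10 genes on the 6 arrays, wild type in blue and Rptor cKO in red, with the array number at each point. The horizontal line is the group mean, the bar beside it is the SD (n = 3), and each axis spans 2 log2 units. The groups stand apart for Ern1, Xbp1, Atf6, Herpud1, Edem1 and Dnajc3, and overlap for Hspa5, Hsp90b1, Dnajb9 and Creld2.

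The genes that start the IRE1 branch were lower. Ern1 (chr11:106397620-106487796), the sensor with kinase and ribonuclease activity, had values of 6.03, 6.02 and 6.08 in the knockout (arrays 1 to 3), against 6.61, 6.37 and 6.41 in the wild type (arrays 4 to 6). The Rptor cKO arrays lay within a narrow band under all wild-type arrays, with 6.04 ± 0.034 against 6.46 ± 0.13 (SD, n = 3). Ern1 thus fell by 0.42 on the log2 scale (SE 0.10, limma adjusted p = 0.0322), a 1.34-fold change. Xbp1 (chr11:5520641-5525993), the transcription factor whose mRNA IRE1 splices, read 6.90, 7.10 and 7.46 in Rptor cKO, against 7.94, 8.08 and 7.82 in wild type. Array 3 was the highest of the Rptor cKO arrays, as it was for all the keratinocyte markers counted above, those of the basal layer included. For Xbp1 it still lay below each wild-type array. The means of 7.15 ± 0.28 and 7.95 ± 0.13 (SD, n = 3) differ by -0.79 (SE 0.15, limma adjusted p = 0.0148), and the fall was 1.73-fold. The spread of Xbp1 within groups, 0.221, was wider than the median of 0.136 over all genes, whereas that of Ern1 was 0.094.

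Atf6 (chr1:170704457-170868585), the membrane-bound factor of the second branch, read 6.83, 6.59 and 6.76 in Rptor cKO, against 6.87, 6.86 and 7.13 in wild type. The groups did not overlap, but array 1 of Rptor cKO came within 0.1 of wild-type arrays 4 and 5. The difference of -0.23 (SE 0.11) missed the threshold in limma (adjusted p = 0.275), and its 95% interval ran from -0.48 to 0.031.

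Both genes of ER-associated degradation fell. Herpud1 (chr8:94386429-94395371), a membrane protein that organises the ubiquitin ligase complex HRD1, read 6.55, 6.58 and 6.73 in Rptor cKO, against 7.33, 7.95 and 7.49 in wild type. The Rptor cKO arrays were close together, and the widest spread was in wild type, where array 5 was highest. With 6.62 ± 0.096 against 7.59 ± 0.32 (SD, n = 3), Herpud1 differed by -0.97 (SE 0.16, limma adjusted p = 0.00916), a 1.96-fold fall. Of the 30142 genes, 812 had a lower difference. Edem1 (chr6:108824045-108859356), which recognises misfolded glycoproteins and hands them on for degradation, read 6.57, 6.39 and 6.48 in Rptor cKO, against 7.10, 6.79 and 7.20 in wild type. Every Rptor cKO array lay below every wild-type array, the nearest being wild-type array 5. Edem1 differed by -0.55 (SE 0.12, limma adjusted p = 0.0278), a 1.46-fold fall. Its RefSeq promoter window belongs to a start inside the annotated gene span, so that a start further upstream was not searched.

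The chaperone genes did not pass the test. Hspa5 (chr2:34772090-34776529), which encodes BiP, the main Hsp70 chaperone of the ER and the protein that holds the sensors inactive, read 6.93, 6.67 and 6.48 in Rptor cKO, against 7.09, 6.69 and 6.82 in wild type. The groups overlapped, and the difference of -0.17 (SE 0.15, limma adjusted p = 0.544) had a 95% interval from -0.51 to 0.16. Hsp90b1 (chr10:86690841-86705444), which encodes GRP94, the Hsp90 of the ER, read 9.20, 8.86 and 8.79 in Rptor cKO, against 8.94, 8.66 and 9.14 in wild type. The highest and the lowest of these 6 values were a Rptor cKO and a wild-type array. The difference was 0.038 (SE 0.15, limma adjusted p = 0.915), with an interval from -0.31 to 0.39. The interval of Hsp90b1 overlaps those of Ern1 (-0.64 to -0.196) and Edem1 (-0.83 to -0.27). It does not overlap those of Herpud1 (-1.33 to -0.61) and Xbp1 (-1.135 to -0.45). For Hspa5 the interval overlaps those of Ern1, Edem1 and Xbp1, but not that of Herpud1. Differences between genes were not tested.

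The remaining genes encode helpers of BiP or secreted ER proteins. Dnajb9 (chr12:44205897-44210068), which encodes ERdj4, a co-chaperone that brings BiP to IRE1, read 7.63, 7.32 and 7.40 in Rptor cKO, against 7.65, 7.41 and 7.28 in wild type. Its groups overlapped throughout, with a difference of 0.0035 (SE 0.13, limma adjusted p = 0.992) and an interval from -0.29 to 0.30. Creld2 (chr15:88819646-88826681), an ER stress inducible protein with EGF-like repeats, read 7.43, 7.46 and 7.43 in Rptor cKO, against 7.64, 7.34 and 7.58 in wild type. The Rptor cKO arrays hardly varied, and wild-type array 5 lay below them (difference -0.086, SE 0.10, limma adjusted p = 0.683, interval -0.32 to 0.15). Among the 5 chaperone genes, only Dnajc3 (chr14:118937932-118981702), which encodes the co-chaperone p58IPK, lay wholly lower in Rptor cKO, as did 12.5% of all genes. It read 6.39, 6.40 and 6.47 in Rptor cKO, against 6.91, 6.54 and 6.80 in wild type, with no overlap and a difference of -0.33 (SE 0.11, limma adjusted p = 0.117, interval -0.59 to -0.072). It passed the test only in the fit without wild-type array 5 (adjusted p = 0.0443), the lowest of the 3 wild-type arrays for this gene. The interval of Dnajc3 overlaps those of the other chaperone genes.

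**Figure D2:**
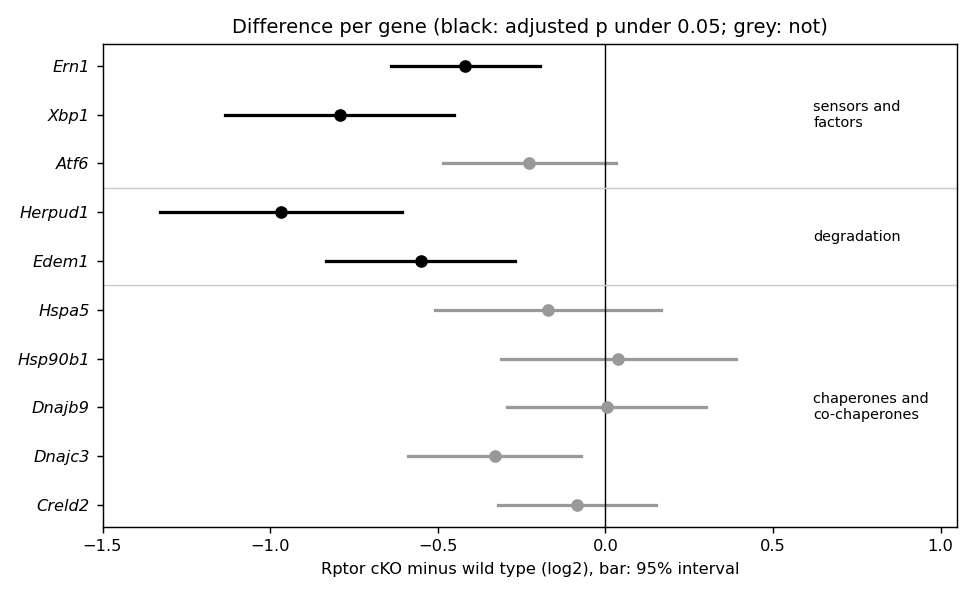
Log2 difference of each gene (Rptor cKO minus wild type) with the 95% interval of the limma fit as a bar; black marks an adjusted p under 0.05. Herpud1 (-0.97) and Xbp1 (-0.79) lie furthest to the left, and the intervals of Atf6, Hspa5, Hsp90b1, Dnajb9 and Creld2 include 0.

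By role, the mean of Herpud1 and Edem1 on Rptor cKO arrays 1 to 3 lay -0.75, -0.83 and -0.70 from the wild-type mean, and wild-type arrays lay between -0.095 and 0.062. The mean of Ern1, Xbp1 and Atf6 lay -0.53, -0.55 and -0.35 from it, and wild-type arrays between -0.016 and 0.020. For the 5 chaperone genes the distances were 0.017, -0.16 and -0.19 in Rptor cKO, inside or just under the wild-type range of -0.17 to 0.15. Degradation genes minus chaperone genes, taken within each array, gave -0.96, -0.86 and -0.71 in Rptor cKO and -0.43, 0.044 and -0.18 in wild type, with no overlap between the groups. For the pair of Herpud1 and Hspa5 alone, Rptor cKO array 3 (0.25) and wild-type array 4 (0.24) met. These role means were compared after the single values were known and are given without a test.

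**Figure D3:**
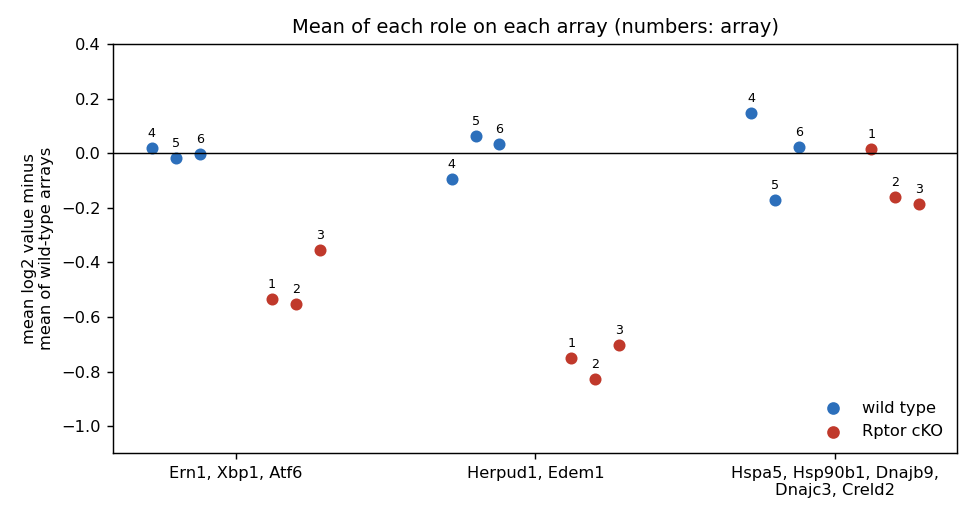
Mean log2 value of the genes of each role on each array, minus the mean of the 3 wild-type arrays, wild type in blue and Rptor cKO in red with the array number. Rptor cKO arrays lie between -0.83 and -0.70 for the degradation genes and between -0.19 and 0.017 for the chaperone genes, where the groups overlap.

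Herpud1 and Xbp1 kept their calls in more of the fits with an array left out than Edem1 and Ern1 did. Both passed in each fit that left out an array other than Rptor cKO array 2, whereas Edem1 and Ern1 passed only where wild-type array 5 was left out. Without Rptor cKO array 2 none of the 10 genes passed in limma, although 4 had an unadjusted p under 0.05. The adjusted p was then 0.0502 for Herpud1 (-0.95), 0.0726 for Xbp1 (-0.77), 0.121 for Edem1 (-0.51) and 0.126 for Ern1 (-0.40). That array was the only male of its group. All 4 genes lay below each wild-type array on it, which follows from the lack of overlap between the groups in these genes. In the fit of the male arrays, with Rptor cKO array 2 as the only knockout, the differences were -1.01, -0.845, -0.643 and -0.445 in that order. The part of sex in these differences was not tested. Without variance moderation all 4 calls were lost, with adjusted p of 0.138 for Herpud1, 0.154 for Xbp1, 0.164 for Edem1 and 0.129 for Ern1. All 4 genes were below 0 under each of the 14 alternatives.

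**Figure D4:**
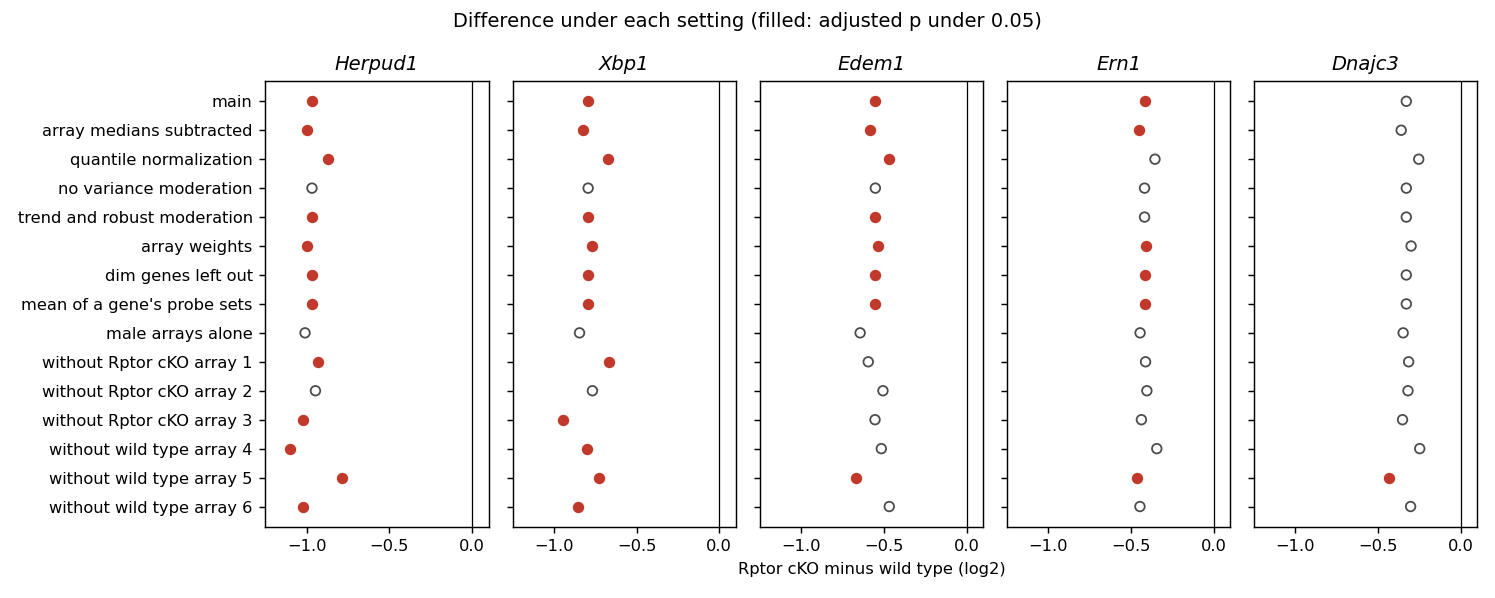
Log2 difference of 5 genes (Rptor cKO minus wild type) under the main setting and 14 alternatives, filled where the adjusted p was under 0.05. The points of Herpud1 stay between -1.1 and -0.79 and those of Xbp1 between -0.95 and -0.67, while the filled points of Ern1 and Edem1 become open in most fits with an array left out.

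Other genes of the pathway, 83 in all of which 74 were measured by a single-gene probe set, held 10 falls and no rise, with 26 lower and 1 higher at an unadjusted p under 0.05 in limma. Their median difference was -0.11. The share of falls may be set beside the 5.95% of all genes that were lower, or beside 1862 of 21491 genes with dim genes left out. Leaving out Rptor cKO array 2 left 3 of these calls, Rptor cKO array 1 or wild-type array 4 left 5, and the male arrays alone 1, and without variance moderation none passed, with 20 at an unadjusted p under 0.05 in limma. A single higher call appeared with quantile normalization, beside 8 falls, and without wild-type array 5, beside 10. Edem2 and Tmbim6 lost their calls with quantile normalization (adjusted p = 0.0655 and 0.118) and with trend and robust moderation (0.0765 and 0.0901), where Os9 did too (0.0516). Sec11c, Erp44 and Sdf2l1 passed in each fit with an array left out, while Derl1 and Ero1a passed in each but the one without Rptor cKO array 2. The calls of Os9, Edem2, Tmbim6, Trib3 and Creb3l1 were lost in several of these fits, including those without Rptor cKO array 1 or 2 or wild-type array 4 or 5.

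Of 18 further degradation genes 3 fell, beside 5.95% of all genes, with a median difference of -0.26 for the 18. Derl1, a channel component of the HRD1 complex, read 6.92, 6.78 and 6.85 in Rptor cKO, against 7.62, 7.26 and 7.38 in wild type (-0.57, SE 0.11, limma adjusted p = 0.0178). Os9, a lectin that recognises glycoproteins for degradation, differed by -0.52 (SE 0.12), and Edem2, a mannosidase related to Edem1, by -0.41 (SE 0.11) with an adjusted p of 0.0494, just under the threshold. In each of these genes, picked by passing the test, all Rptor cKO arrays lay below all wild-type arrays. Of the 18 genes 8 showed that order and 1 the opposite, beside 12.5% and 16.5% of all genes. The measured differences of the degradation genes were below 0 in 15 of 18, beside 38.4% of all genes.

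Among 24 further chaperones and folding enzymes 3 fell, with a median of -0.089 and differences from -0.73 to 0.46. The share of falls may again be set beside 5.95% of all genes. Of the 24 differences 15 were below 0, beside 38.4% of all genes. Erp44, which retains client proteins in the early secretory pathway, fell from 7.45, 7.18 and 7.44 in wild type to 6.70, 6.44 and 6.74 in Rptor cKO (-0.73, SE 0.12, limma adjusted p = 0.00929). Ero1a, an oxidase that forms disulfides, differed by -0.71 (SE 0.12), and Sdf2l1, a partner of ER co-chaperones, by -0.61 (SE 0.11). All 3 genes, picked by passing the test, showed no overlap between the groups. Of the 24 genes 7 lay wholly lower in Rptor cKO and 1 wholly higher, beside 12.5% and 16.5% of all genes. Of 15 genes of translocation and signal peptide removal, Sec11c alone passed the test. This catalytic subunit of the signal peptidase read 5.47, 5.33 and 5.61 in Rptor cKO, against 6.82, 6.19 and 6.63 in wild type (-1.08, SE 0.16, limma adjusted p = 0.00699), while its paralogue Sec11a differed by 0.046 (SE 0.13).

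The PERK branch gave 1 call in 7 measured genes, a fall, beside 5.95% of all genes. All 7 differences were below 0, from -0.74 to -0.028, beside 38.4% of all genes. Eif2ak3, which encodes PERK, differed by -0.22 (SE 0.093, limma adjusted p = 0.197), the factor Atf4 by -0.12 (SE 0.16, adjusted p = 0.714), and Ddit3, the stress factor CHOP, by -0.29 (SE 0.17, adjusted p = 0.341). Trib3, a pseudokinase downstream of ATF4 and CHOP, fell by 0.74 (SE 0.16, adjusted p = 0.0218). Trib3 read 4.67, 5.04 and 5.06 in Rptor cKO, against 5.74, 5.86 and 5.39 in wild type. Of 8 other sensors and membrane-bound factors, Creb3l1, a relative of ATF6, fell by 0.75 (SE 0.16, adjusted p = 0.0245). Mbtps1, the protease that makes the first cut in ATF6, differed by 0.24 (SE 0.11, adjusted p = 0.241), with all Rptor cKO arrays above the wild-type arrays. Tmbim6, an ER membrane protein that dampens IRE1, fell by 0.42 (SE 0.099, adjusted p = 0.0354), and the ER membrane protein Wfs1 differed by 0.060 (SE 0.18).

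**Figure D5:**
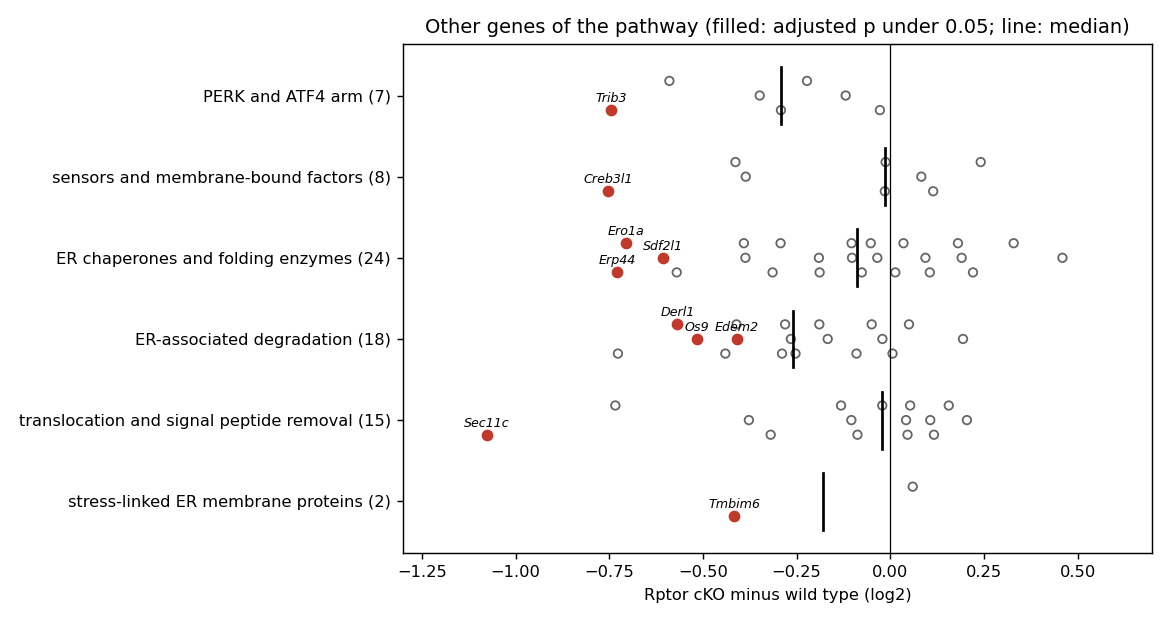
Log2 difference (Rptor cKO minus wild type) of 74 other genes of the pathway in 6 groups with the number of genes in brackets; filled points had an adjusted p under 0.05 and the vertical line is the group's median. All 10 filled points lie left of 0, and Sec11c (-1.08) lies furthest left.

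Returning to the promoter motifs, 6 of the 58 other pathway genes with a RefSeq window held the ERSE: Calr, Canx, Pdia6, Ero1b, Syvn1 and Derl3. Together with the 4 members these 10 genes had a median difference of -0.049, from -0.33 for Dnajc3 to 0.22 for Canx, and none passed the test, with 1 at an unadjusted p under 0.05 in limma. Of all 29 measured genes with an ERSE match, 3 passed, all as higher: Zfp57 (1.39), Spats2l (0.50) and Adcy3 (0.40), which are named here after their values were seen. That is 10.3% of them, beside 3.63% of all genes called as higher and 9.58% called in either direction. None of the 29 was called as lower, beside 5.95% of all genes. Of the 10 measured genes with an ERSE-II match, 2 were lower, Herpud1 and Lgalsl (-0.70), the latter also named after its value was seen. Dnajb11, a pathway gene with the same motif that encodes a co-chaperone of BiP, differed by -0.39 (SE 0.14, limma adjusted p = 0.140). The shorter element bound by XBP1 was in the windows of 151 measured genes, of which 13 were lower and 5 higher. That is 11.9% in all, beside 9.58% of all genes. Its 4 pathway genes, Txndc5, Txndc11, Vcp and Ube2j1, lay between -0.41 and 0.191 with a median of -0.273, and none passed, with 2 at an unadjusted p under 0.05 in limma. These counts describe letters near annotated starts and were not tested.

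The genes whose profile over the 6 arrays was most like that of Xbp1, by the root mean square difference of log2 values after subtracting each gene's mean, were Acadvl (0.0466), Fam83g (0.0555), Inava (0.058) and Pkp1 (0.0665) among 18014 genes compared. The median of this distance from Xbp1 to the other members was 0.374. Those most like Hspa5 were Sftpc (0.0519), Atp2a2 (0.0588), Slc10a5 (0.0648) and Abcf2 (0.0725), and the median to the other members was 0.195. The closest genes were picked from 18014, so their distances lie under a median over few genes by selection. These distances therefore do not show whether the members follow Xbp1 or Hspa5 less than other genes do. Sftpc and Slc10a5 were dim, with group means of at most 4.66 and 3.06.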

How the data were processed

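RNA of 6 epidermal sheets was labelled with biotin and hybridised to expression arrays. The deposited table holds log2 probe set values made by the authors with RMA and Partek on genome build mm10, per the submitters' processing notes. Versions, slides and scan dates were not stated in the sources used here, so batches were not examined. Normalized values of this kind cannot show a general rise or fall of RNA. Depth does not apply to arrays, and their number limits the precision.

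Of 72688 probe sets 6732 were controls, 30604 named 1 gene, 2146 several and 33206 none by the platform annotation. An Entrez ID matched 22818 of them in RefSeq, and 827 symbols were updated. Where more than 1 probe set stood for a gene (355 genes), the brightest on average was used, which left 30142 genes. Genes named only by a shared probe set were left out, among them 9 of the 83 other pathway genes. Differences were fitted with limma 3.58.1 in R 4.3.3 (lmFit and eBayes, group as the only term, 6 arrays, two-sided), with Benjamini-Hochberg adjustment over all 30142 genes and a threshold of 0.05. A permutation of 3 against 3 arrays could not go below p = 0.1. The fit was tested on simulated data. Motifs were searched with Python 3.11.15.

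The members and lists were chosen with earlier results of these data known, and the lists were written from general knowledge. Named were all 10 members, Rptor, from each group of other pathway genes at most 3 called genes per direction, by smallest p, Eif2ak3, Atf4, Ddit3 and Mbtps1 in any case, and 4 genes most like Xbp1 and Hspa5, leaving out predicted genes and small RNA. Other genes are named for a motif, as a contrast or as cell markers.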

Additional observations from a re-analysis of the deposited data

How the results depend on the processing

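No paired analysis was possible because the groups share no replicate numbers. The direction of Herpud1, Xbp1, Edem1, Ern1, Atf6, Hspa5 and Dnajc3 was the same under the main fit and all 14 alternatives, while Hsp90b1, Dnajb9 and Creld2, which never passed the test, changed sign under some. Without variance moderation 0 of 10 members, 0 of 74 other pathway genes and 8 of 30142 genes passed (unadjusted 5, 20 and 5796). With the male arrays alone, which compare Rptor cKO array 2 with wild type and assume that it varies like the others, the counts were 0, 1 and 867, and the members' median difference was -0.356 in place of -0.278. It was -0.201 with quantile normalization, where Ern1 lost its call (adjusted p = 0.0629), and 51.8% of called genes were lower in place of 62.1%. With trend and robust moderation Ern1 also lost its call (adjusted p = 0.0544). With an array left out, 0 to 5 members, 3 to 11 other pathway genes and 886 to 2443 genes passed, and the median ran from -0.355 to -0.239. The cause of these changes was not tested, and the fits with an array left out also hold fewer arrays.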
